A study of Mus musculus with 8 samples.

Results

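The 41 genes described here encode the machinery that copies DNA in S phase and the enzymes and regulators that feed it. They were listed by their known roles, from origin licensing to nucleotide supply, and were matched to the array by gene symbol. Of the 41, 39 had a probe set with a single symbol, out of 22180 genes measured that way in the series. The other 2, the clamp loader gene Rfc4 and the cyclin E2 gene Ccne2, lay on probe sets that carry a further gene symbol, and were not analysed here.

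Expression was measured on 8 arrays of total RNA from primary articular chondrocytes, which build and keep joint cartilage, isolated from the femoral condyles and tibial plateaus of wild-type ICR mice aged 5 days. The cells were grown as a monolayer in medium with 10% fetal bovine serum. One group of 4 arrays came from cells infected with a control adenovirus (Ad-null) and the other group of 4 from cells infected with an adenovirus that expresses ZIP8, a zinc importer of the cell membrane (Ad-Zip8), both for 24 h. The viral dose is not stated in the labels. Slc39a8, the gene of ZIP8, read 6.25, 6.27, 6.12 and 6.15 on the log2 scale on Ad-null arrays 1 to 4 and 11.16, 10.90, 11.24 and 11.20 on Ad-Zip8 arrays 1 to 4, a rise of 30.4-fold (log2 change 4.93, SE 0.09, limma adjusted p = 3.49e-09), so each array matched its label. The labels call the arrays biological replicates and name neither animals nor pools. Each p-value therefore measures the spread between these samples, which may be technical.

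As background, a cell licenses its replication origins in G1, when the origin recognition complex, Cdc6 and Cdt1 load the ring of MCM proteins onto DNA. In S phase the ring is turned into an active helicase by Cdc45 and the GINS complex, and polymerases alpha, delta and epsilon copy the strands with the sliding clamp PCNA. Many of these genes are transcribed late in G1 by E2F transcription factors. The retinoblastoma protein restrains these factors until kinases, that of cyclin E among them, release them. Articular chondrocytes divide little in adult cartilage, whereas cells from newborn mice in a monolayer with serum can divide.

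Because the genes are known for shared control by E2F, their promoters were searched for E2F-type words, taken as TTTCCCGC, TTTGGCGC, TTTCGCGC and TTTGCCGC on either strand, within the RefSeq window from 250 bases before to 50 bases after each gene's start (build GRCm38.p6). Of the 41 genes 33 matched such a window, and 13 of these (39.4%) held at least 1 word. Among all 16990 measured genes with a window, 554 (3.26%) held one. The words were present in 7 of 19 genes that rose (36.8%) and in 6 of 13 that did not pass the test (46.2%). The remaining gene with a window was Rfc4. A match is a description of letters and not a binding site. Of the 13 genes, 4 held a word within the 100 bases before the start, 6 held one after the start and none in those 100 bases, and 3 held one only farther before it. The next lines show the 100 bases before the start for the first 4, and 100 bases around the more distant word of Cdc6 and Mcm5, which were chosen after their changes were seen. Rrm2, the gene with the largest change, held no E2F-type word in its window and is shown with its CCAAT element. Capitals mark the words, and each stretch is given 5′ to 3′ on the gene's strand.
Orc1, chr4:108579354-108579453, plus strand: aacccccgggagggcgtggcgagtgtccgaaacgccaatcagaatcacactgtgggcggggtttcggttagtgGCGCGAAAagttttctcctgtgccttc
Mcm6, chr1:128359706-128359805, minus strand: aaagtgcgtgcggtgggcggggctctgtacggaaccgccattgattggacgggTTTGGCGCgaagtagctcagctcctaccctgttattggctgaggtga
Rfc3, chr5:151651209-151651308, minus strand: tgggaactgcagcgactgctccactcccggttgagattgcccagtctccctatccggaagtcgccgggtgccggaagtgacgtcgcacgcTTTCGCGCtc
Gins3, chr8:95633459-95633558, plus strand: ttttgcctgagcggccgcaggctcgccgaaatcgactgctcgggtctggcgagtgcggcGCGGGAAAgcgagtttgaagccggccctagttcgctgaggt
Cdc6, chr11:98907967-98908066, plus strand: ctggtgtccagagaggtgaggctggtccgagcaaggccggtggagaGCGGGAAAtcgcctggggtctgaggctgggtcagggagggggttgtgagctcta
Mcm5, chr8:75109310-75109409, plus strand: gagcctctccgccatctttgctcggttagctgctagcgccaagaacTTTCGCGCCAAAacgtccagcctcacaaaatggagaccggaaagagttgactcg
Rrm2, chr12:24708154-24708253, plus strand: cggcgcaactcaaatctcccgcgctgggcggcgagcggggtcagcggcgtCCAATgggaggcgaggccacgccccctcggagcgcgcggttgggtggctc
The word in Orc1 begins 27 bases before the start, that in Mcm6 47, that in Rfc3 10 and that in Gins3 41. In Cdc6 it begins 138 bases before the start. In Mcm5 a pair of words on opposite strands overlap, beginning 153 and 149 bases before the start. Of these 4 genes with a word in the 100 bases before the start, Orc1 rose, and Mcm6, Rfc3 and Gins3 did not pass the test (log2 changes of 0.20, 0.18 and -0.03). Of the 6 with a word after the start, Cdt1, Lig1, Mcm3 and Mcm7 rose, and Pold1 and Pole2 did not pass. Of the 3 with a word only farther before it, Cdc6 and Mcm5 rose, and Pola1 did not pass.

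Replication and S phase genes were higher with Ad-Zip8 or did not pass the test, and none was lower. Of the 39 measured genes 23 rose (59.0%), against 5.48% of all genes tested that rose and 5.12% that fell. Their median log2 change, Ad-Zip8 minus Ad-null, was 0.42 against -0.02 over all genes. The changes ran from -0.03 for Gins3 to 1.42 for Rrm2. A change of at least 2-fold was seen in 2 genes, Rrm2 and Tk1, both of the nucleotide supply. Of all 22180 genes, 248 rose by at least 2-fold. In 27 of the 39 genes all 4 Ad-Zip8 arrays lay above all 4 Ad-null arrays, which held for 7.89% of all genes. These 27 were the 23 that rose and 4 that did not pass (Mcm2, Gins4, Pola1 and Fen1), and the groups overlapped in the other 12. In bulk RNA, more cells in S phase and more RNA of these genes per cell cannot be told apart.

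**Figure D1:**
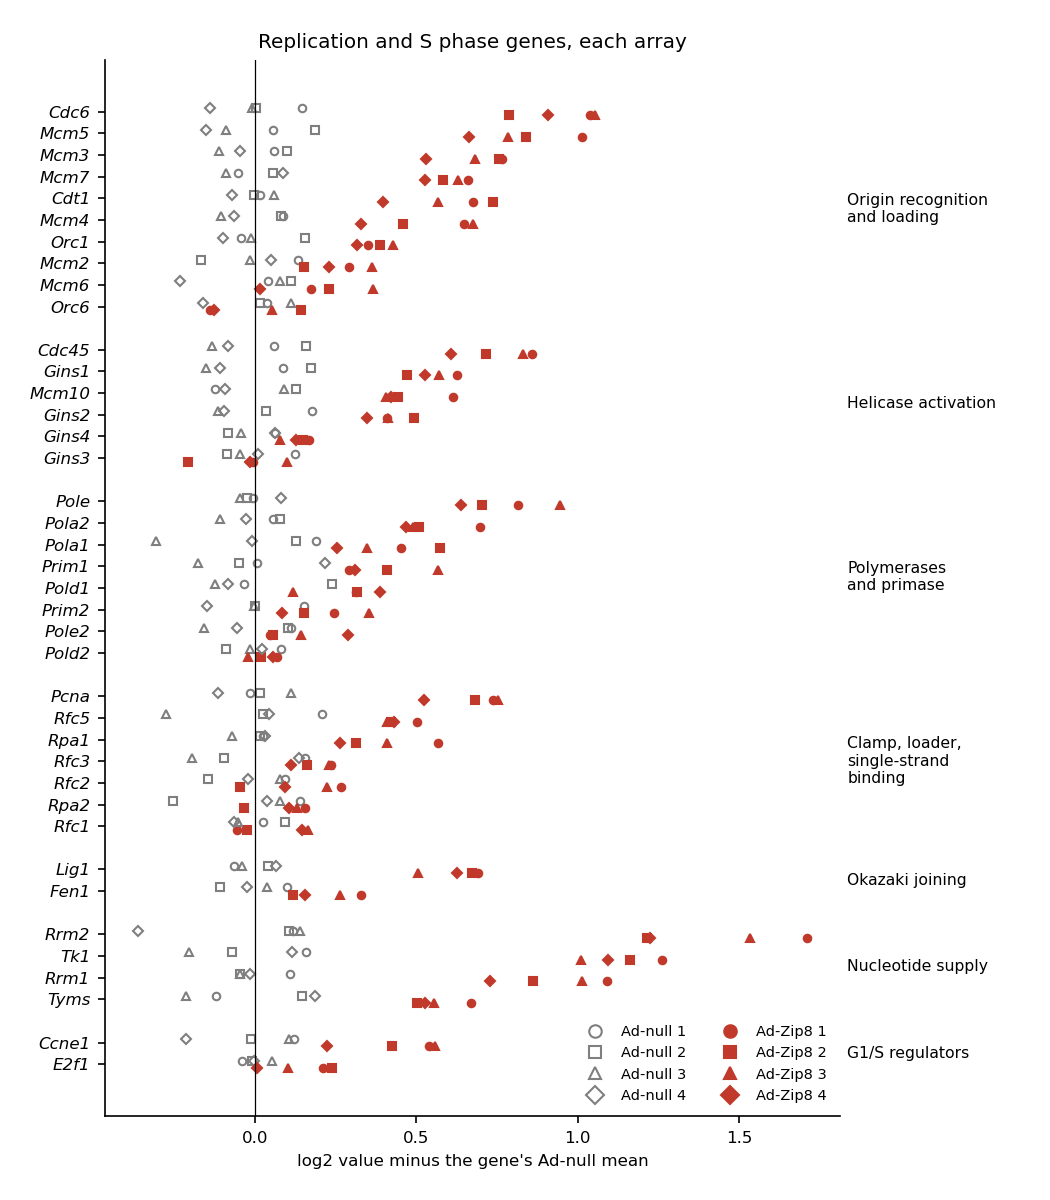
Log2 value on each of the 8 arrays minus the gene's mean over the 4 Ad-null arrays (x axis), for the 39 genes by role (y axis), with open grey symbols for Ad-null, filled red symbols for Ad-Zip8 and a symbol shape for each replicate number. Rrm2, Tk1, Rrm1 and Cdc6 show the widest gap between the groups, and the groups overlap in 12 genes such as Orc6, Gins3 and Pold2.

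Genes that load the helicase onto origins rose in 7 of 10 cases, and the median log2 change of the 10 was 0.56. Cdc6, the loader that recruits the MCM ring to origins, read 5.28, 5.13, 5.12 and 4.99 on Ad-null arrays 1 to 4 and 6.17, 5.92, 6.18 and 6.04 on Ad-Zip8 arrays 1 to 4. Every Ad-Zip8 value exceeded every Ad-null value, and the gene rose 1.93-fold (log2 change 0.95, SE 0.09, limma adjusted p = 1.35e-04). Cdt1, the partner of Cdc6 in loading, rose 1.51-fold (log2 change 0.59, SE 0.09, adjusted p = 0.00175). Orc1, an ATP-binding subunit of the origin recognition complex whose level varies in the cell cycle, had an Ad-null mean of 4.85, under the array medians. It rose 1.29-fold (log2 change 0.37, SE 0.08, adjusted p = 0.0121). Orc6, the smallest subunit of that complex, read 7.43, 7.41, 7.51 and 7.23 with Ad-null and 7.26, 7.54, 7.45 and 7.27 with Ad-Zip8. The Orc6 groups overlapped throughout, with a log2 change of -0.02 (95% interval -0.23 to 0.19, adjusted p = 0.938).

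The log2 changes of the 6 MCM genes, whose products form a ring with a single copy of each, ran from 0.20 to 0.83. No pair of them passed a test of unequal change after adjustment, but that test could pass no pair here, as described below. Mcm5 read 7.14, 7.27, 6.99 and 6.93 with Ad-null and 8.09, 7.92, 7.86 and 7.74 with Ad-Zip8, a rise of 1.77-fold (log2 change 0.83, SE 0.10, adjusted p = 6.60e-04). Mcm3 read 7.49, 7.53, 7.32 and 7.38 with Ad-null and 8.20, 8.18, 8.11 and 7.96 with Ad-Zip8, a rise of 1.61-fold (0.68, SE 0.08, adjusted p = 6.06e-04). Mcm7 rose 1.52-fold (adjusted p = 5.75e-04) and Mcm4 1.44-fold (adjusted p = 0.00630). In all 4 genes the groups stood apart. Mcm2 read 8.57, 8.27, 8.42 and 8.49 with Ad-null and 8.73, 8.59, 8.80 and 8.67 with Ad-Zip8. The Mcm2 groups did not overlap, but the log2 change of 0.26 (SE 0.09) had an adjusted p of 0.0934, which was 0.0398 after dim genes were left out, 0.0323 with a variance trend and 0.0405 with arrays quantile normalized again. Mcm6 read 8.34, 8.41, 8.37 and 8.07 with Ad-null and 8.47, 8.53, 8.66 and 8.31 with Ad-Zip8, with overlapping groups and a log2 change of 0.20 (95% interval -0.03 to 0.43, adjusted p = 0.305).

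To ask whether subunits of a complex changed unequally, the difference of 2 log2 values within each array was compared between the groups by an exact two-sided permutation test over the 8 arrays, for 38 pairs of subunits in 9 complexes. The smallest p this design allows is 0.0286, and 20 of the 38 pairs reached it. Each of these had a Benjamini-Hochberg adjusted p of 0.0543 over the 38, so no pair passed after adjustment. With 20 pairs at the smallest p, no pair could pass, so a failure to pass does not show equal change. In each of the 20, the differences on all 4 Ad-Zip8 arrays lay above those on all 4 Ad-null arrays. The permutation test exchanges arrays regardless of their replicate number. Taken within the 4 pairs of arrays with the same number, a comparison added after the data were seen, 25 of the 38 subunit pairs differed in 1 direction in all 4, among them all 20, which gives an exact sign-exchange p of 0.125, the smallest that 4 pairs allow. Within the MCM ring 9 of 15 pairs reached the exact p of 0.0286 of the test over the 8 arrays. The change of Mcm5 exceeded that of Mcm6 by 0.63 on the log2 scale (exact p = 0.0286, adjusted p = 0.0543) and that of Mcm2 by 0.57 (exact p = 0.0286, adjusted p = 0.0543). Mcm2 and Mcm6 themselves differed by 0.06 (exact p = 0.657, adjusted p = 0.694). Probe sets respond unequally to RNA, so such a difference, had it passed, would be one of signal and not necessarily of RNA.

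**Figure D2:**
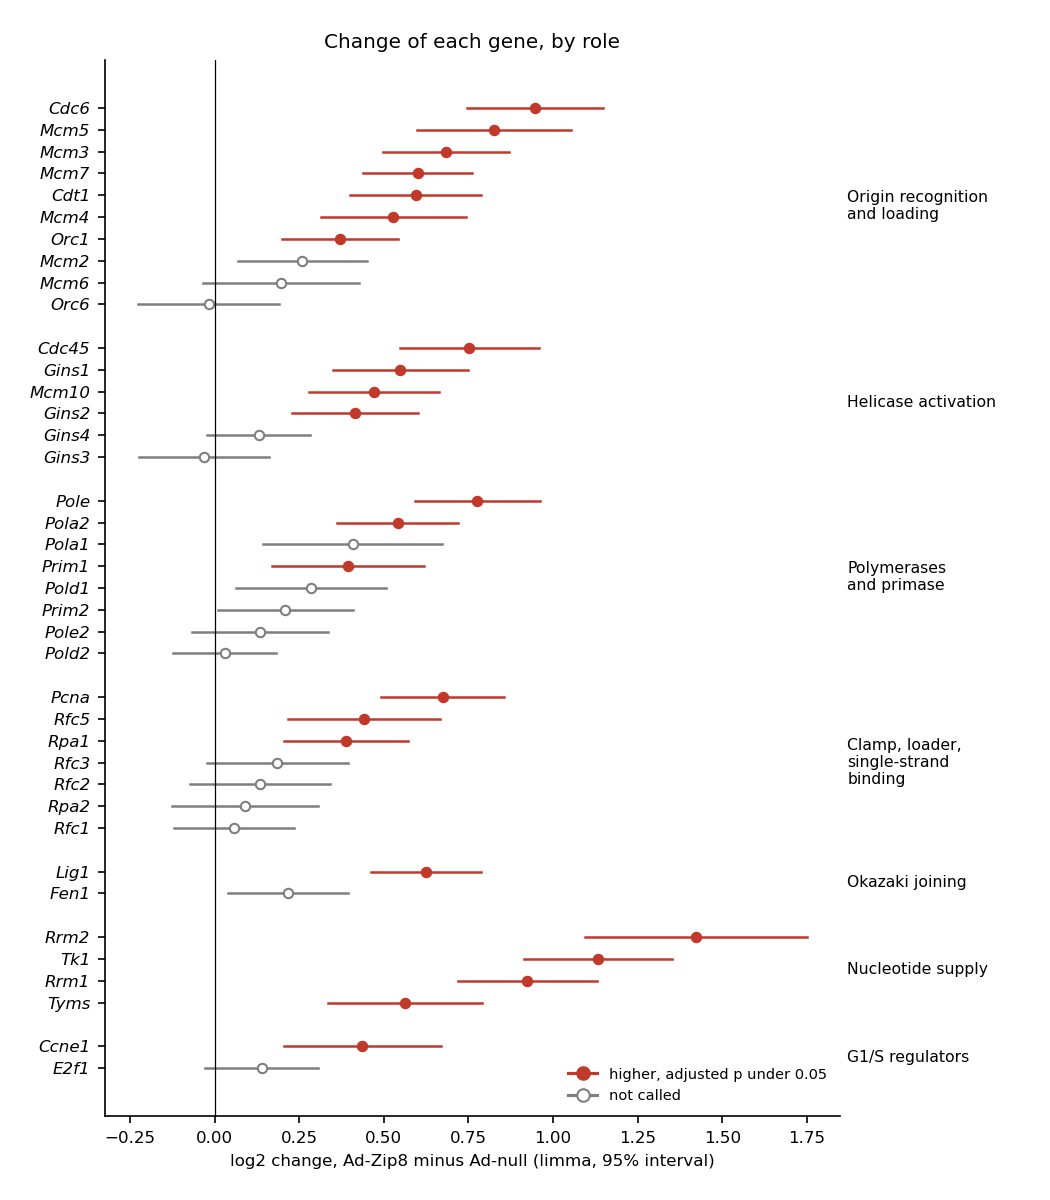
Log2 change of each of the 39 genes (x axis, Ad-Zip8 minus Ad-null, 4 arrays each) with its 95% interval from limma, by role (y axis); filled red points passed an adjusted p under 0.05 and open grey points did not. All 4 nucleotide supply genes are red, against 3 of 7 in the clamp, clamp loader and single-strand binding group.

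Genes that turn the loaded ring into a helicase rose in 4 of 6 cases, and 2 did not pass. Cdc45, which joins the MCM ring to make the active helicase, read 5.57, 5.67, 5.37 and 5.42 with Ad-null and 6.36, 6.22, 6.34 and 6.11 with Ad-Zip8. With Ad-null and Ad-Zip8 well apart, Cdc45 gained 1.69-fold (log2 change 0.75, SE 0.09, adjusted p = 6.15e-04). Mcm10, a scaffold needed to start unwinding, read 5.83, 6.08, 6.05 and 5.86 with Ad-null and 6.57, 6.40, 6.36 and 6.38 with Ad-Zip8 and rose 1.39-fold (0.47, SE 0.09, adjusted p = 0.00655). The GINS complex, a ring of 4 small proteins that binds Cdc45, split into subunits that rose and subunits that did not pass. Gins1 read 4.53, 4.61, 4.29 and 4.33 with Ad-null and 5.06, 4.91, 5.01 and 4.96 with Ad-Zip8, a rise of 1.46-fold from a level under the array medians (adjusted p = 0.00325), and Gins2 rose 1.33-fold (adjusted p = 0.0104). Gins4 read 7.92, 7.78, 7.82 and 7.92 with Ad-null and 8.03, 8.01, 7.94 and 7.99 with Ad-Zip8, so that its groups only just missed each other at a log2 change of 0.13 (adjusted p = 0.307). Gins3 read 6.78, 6.56, 6.61 and 6.66 with Ad-null and 6.65, 6.44, 6.75 and 6.64 with Ad-Zip8, with overlapping groups and a change of -0.03 (95% interval -0.22 to 0.16, adjusted p = 0.873). The change of Gins1 exceeded that of Gins3 by 0.58 and that of Gins4 by 0.42 on the log2 scale (exact p = 0.0286 and adjusted p = 0.0543 for each).

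Polymerase and primase genes rose in 3 of 8 cases, and the median log2 change of the 8 was 0.34. Pole, the catalytic subunit of the leading-strand polymerase epsilon, read 5.52, 5.50, 5.48 and 5.61 with Ad-null and 6.34, 6.23, 6.47 and 6.16 with Ad-Zip8. It rose 1.71-fold (log2 change 0.78, SE 0.08, adjusted p = 2.62e-04), or by 0.48 on the log2 scale as the mean of its 2 probe sets (adjusted p = 0.00378). Pole2, the second subunit of that enzyme, read 7.36, 7.35, 7.09 and 7.20 with Ad-null and 7.30, 7.31, 7.39 and 7.54 with Ad-Zip8, with overlapping groups and a change of 0.13 (adjusted p = 0.442). The change of Pole exceeded that of Pole2 by 0.64 (exact p = 0.0286, adjusted p = 0.0543).

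Polymerase alpha makes the primers together with primase. Pola2, its regulatory subunit, read 7.21, 7.23, 7.04 and 7.12 with Ad-null and 7.85, 7.66, 7.64 and 7.62 with Ad-Zip8 and rose 1.45-fold (log2 change 0.54, SE 0.08, adjusted p = 0.00192). Pola1, its catalytic subunit, read 6.18, 6.12, 5.69 and 5.98 with Ad-null and 6.44, 6.57, 6.34 and 6.25 with Ad-Zip8. The Pola1 groups did not overlap, and the log2 change of 0.41 had an adjusted p of 0.0574, against 0.0347 with the replicate number as a block, 0.0252 after dim genes were left out and 0.0307 with a variance trend. Prim1, the catalytic primase subunit, rose 1.31-fold (0.39, SE 0.10, adjusted p = 0.0343). This call was lost with the replicate block (adjusted p = 0.0825) and in every fit with 1 array left out other than that without Ad-null replicate 4 (adjusted p from 0.0532 without Ad-Zip8 replicate 1 to 0.0848 without Ad-null replicate 2). Without Ad-null replicate 1 or 3, or any 1 of the Ad-Zip8 arrays, 2 of the 8 genes were called. Prim2, the large primase subunit, read 7.999, 7.846, 7.844 and 7.699 with Ad-null and 8.091, 7.998, 8.200 and 7.930 with Ad-Zip8, which overlap, with a change of 0.21 (adjusted p = 0.200). For polymerase delta, the lagging-strand enzyme, the catalytic subunit gene Pold1 read 6.61, 6.88, 6.52 and 6.56 with Ad-null and 6.95, 6.96, 6.76 and 7.03 with Ad-Zip8. The second Ad-null array lay above the third Ad-Zip8 array, and the change of 0.28 had an adjusted p of 0.112, or 0.0378 without Ad-null replicate 2. Its partner Pold2 read 8.49, 8.32, 8.40 and 8.43 with Ad-null and 8.48, 8.43, 8.39 and 8.47 with Ad-Zip8, a change of 0.03 (95% interval -0.12 to 0.18, adjusted p = 0.850).

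**Figure D3:**
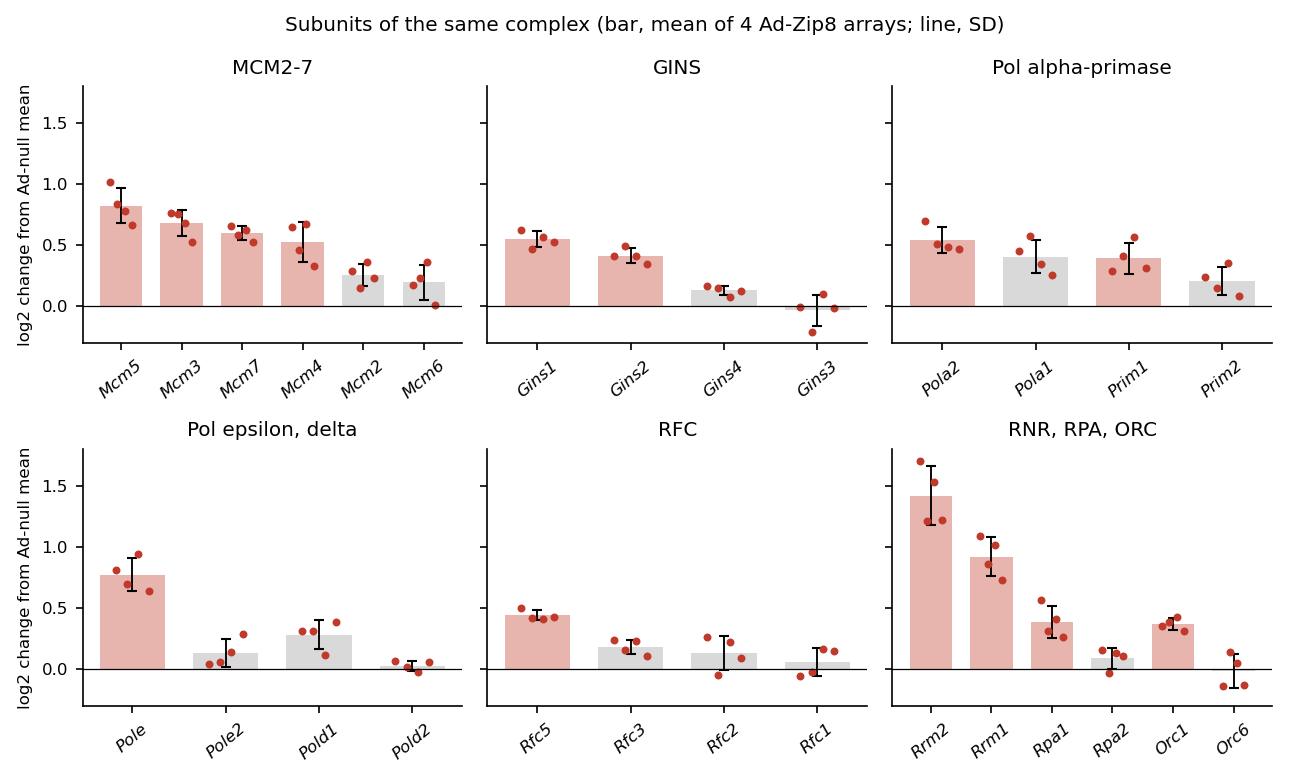
Log2 change from the Ad-null mean (y axis) of subunits that belong to the same complex, in 6 panels; each bar is the mean of the 4 Ad-Zip8 arrays, points are the arrays, lines are the SD of the 4 Ad-Zip8 arrays, and red bars passed an adjusted p under 0.05. Mcm5 (0.83) stands above Mcm6 (0.20), Gins1 (0.55) above Gins3 (-0.03) and Pole (0.78) above Pole2 (0.13).

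Clamp, clamp loader and single-strand binding genes rose in 3 of 7 cases and 4 did not pass. Pcna, the sliding clamp that holds polymerases on DNA, read 8.28, 8.31, 8.41 and 8.18 with Ad-null and 9.03, 8.98, 9.05 and 8.82 with Ad-Zip8. It was well separated and was 1.60-fold higher (log2 change 0.67, SE 0.08, adjusted p = 5.89e-04). As its loader, the RFC complex opens the clamp and sets it on DNA. Its small subunit gene Rfc5 read 6.49, 6.31, 6.01 and 6.33 with Ad-null and 6.79, 6.71, 6.70 and 6.72 with Ad-Zip8, a rise of 1.36-fold (adjusted p = 0.0200, or 0.0608 without Ad-Zip8 replicate 1). Rfc3 read 6.51, 6.26, 6.16 and 6.49 with Ad-null and 6.59, 6.51, 6.58 and 6.47 with Ad-Zip8, a change of 0.18 (adjusted p = 0.283). Rfc2 read 6.80, 6.57, 6.79 and 6.69 with Ad-null and 6.98, 6.67, 6.94 and 6.81 with Ad-Zip8, a change of 0.13 (adjusted p = 0.453). Rfc1, the large subunit, read 8.23, 8.30, 8.15 and 8.14 with Ad-null and 8.15, 8.18, 8.37 and 8.35 with Ad-Zip8, a change of 0.06 (adjusted p = 0.745). The groups of these 3 genes overlapped.

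Replication protein A coats the unwound strand. Its large subunit gene Rpa1 read 7.78, 7.77, 7.68 and 7.78 with Ad-null and 8.32, 8.07, 8.16 and 8.02 with Ad-Zip8. It rose 1.31-fold on the brighter of its 2 probe sets (log2 change 0.39, SE 0.08, adjusted p = 0.0137), and as their mean the change was 0.23 (adjusted p = 0.178). With that mean, or without Ad-Zip8 replicate 1, 2 of the 7 genes were called. Rpa2, the middle subunit, read 7.24, 6.85, 7.18 and 7.14 with Ad-null and 7.26, 7.07, 7.23 and 7.21 with Ad-Zip8, overlapping at a change of 0.09 (adjusted p = 0.660).

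The enzymes that finish lagging-strand fragments gave 1 rise and 1 gene that did not pass. Lig1, the ligase that seals the fragments, read 6.07, 6.17, 6.09 and 6.20 with Ad-null and 6.82, 6.80, 6.64 and 6.76 with Ad-Zip8, a rise of 1.54-fold (log2 change 0.62, SE 0.07, adjusted p = 4.57e-04). Fen1, the nuclease that trims their flaps, read 5.85, 5.65, 5.79 and 5.73 with Ad-null and 6.08, 5.87, 6.02 and 5.91 with Ad-Zip8 on the brighter of its 2 probe sets. The groups did not overlap there, at a log2 change of 0.22 (adjusted p = 0.127), but the other probe set read 5.88, 5.61, 5.61 and 6.07 with Ad-null and 5.45, 5.37, 5.56 and 5.80 with Ad-Zip8, and the mean of the 2 gave -0.01 (adjusted p = 0.949), so no direction is given for Fen1.

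Nucleotide supply genes held the 2 largest changes, those of Rrm2 and Tk1, and all 4 genes of this role rose. Rrm2, the small subunit of ribonucleotide reductase, which makes the DNA building blocks and whose level limits the enzyme outside S phase, read 5.45, 5.44, 5.47 and 4.97 with Ad-null and 7.04, 6.55, 6.87 and 6.56 with Ad-Zip8. The groups were more than 1 log2 unit apart, and Rrm2 rose 2.68-fold (log2 change 1.42, SE 0.15, adjusted p = 2.19e-04). As the mean of its 2 probe sets, the other of which lay between 2.43 and 2.73 on all arrays, the change was 0.73 (adjusted p = 6.51e-04). Tk1, the thymidine kinase that salvages thymidine in S phase, read 6.51, 6.28, 6.14 and 6.46 with Ad-null and 7.61, 7.51, 7.36 and 7.44 with Ad-Zip8, a rise of 2.19-fold (log2 change 1.13, SE 0.10, adjusted p = 8.23e-05). Rrm1, the large reductase subunit, read 7.90, 7.75, 7.75 and 7.78 with Ad-null and 8.89, 8.66, 8.81 and 8.52 with Ad-Zip8, a rise of 1.90-fold (0.92, SE 0.09, adjusted p = 1.72e-04). Its change was 0.50 smaller than that of Rrm2 on the log2 scale (exact p = 0.0286, adjusted p = 0.0543). Tyms, the thymidylate synthase that makes the nucleotide thymidylate from deoxyuridylate, rose 1.48-fold (adjusted p = 0.00593).

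Of the 2 regulators of S phase entry that were measured, Ccne1 rose and E2f1 did not pass. Ccne1, the gene of cyclin E1, read 6.54, 6.40, 6.52 and 6.20 with Ad-null and 6.96, 6.84, 6.97 and 6.64 with Ad-Zip8, with both groups lowest in replicate 4. Its rise of 1.35-fold had an adjusted p of 0.0251, but the call was lost, and with it the only one of this pair, without Ad-null replicate 2 (0.0609) or 4 (0.0647) or without Ad-Zip8 replicate 1 (0.0752), 2 (0.0569) or 3 (0.0660). With the replicate block it passed (adjusted p = 0.00756). E2f1, an activating E2F gene and itself an E2F target, read 6.66, 6.69, 6.75 and 6.69 with Ad-null and 6.91, 6.94, 6.80 and 6.70 with Ad-Zip8. The Ad-Zip8 arrays 1 and 2 were the highest, array 4 lay among the Ad-null values, and the change of 0.14 had a 95% interval of -0.03 to 0.31 (adjusted p = 0.314).

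The individual arrays did not contribute equally. Taking each gene relative to its mean over all 8 arrays, the median over the 39 genes was 0.28, 0.20, 0.23 and 0.13 on Ad-Zip8 arrays 1 to 4, and -0.17, -0.19, -0.27 and -0.25 on Ad-null arrays 1 to 4. Ad-Zip8 array 1 held the highest value of its group for 20 of the 39 genes and Ad-Zip8 array 4 the lowest for 19. Among Ad-null arrays, array 1 was highest for 17 genes and array 3 lowest for 17. Without Ad-Zip8 replicate 1, 20 of the 39 genes rose.

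Among 57 further replication genes outside the list, 22 rose (38.6%, against 5.48% of all genes) and none fell (against 5.12%). Their median log2 change was 0.26, against -0.02 over all genes. The largest were Ccna2, the gene of S phase cyclin A2 (2.57-fold, log2 change 1.36), and Chaf1b and Asf1b, whose products place histones on new DNA (2.55-fold and 2.35-fold). Exo1, a repair nuclease (1.94-fold), and Clspn, which encodes the fork protein claspin (1.89-fold), followed, all with an adjusted p of 4.92e-04 or lower. The remaining origin recognition genes did not pass: Orc2 changed by -0.13, Orc3 by -0.16, Orc4 by -0.19 and Orc5 by -0.16 on the log2 scale. Rpa3, the small subunit of replication protein A, changed by -0.23 (adjusted p = 0.321). These subunits share their complexes with Orc1 and Rpa1, which rose, though the differences between them were not tested.

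**Figure D4:**
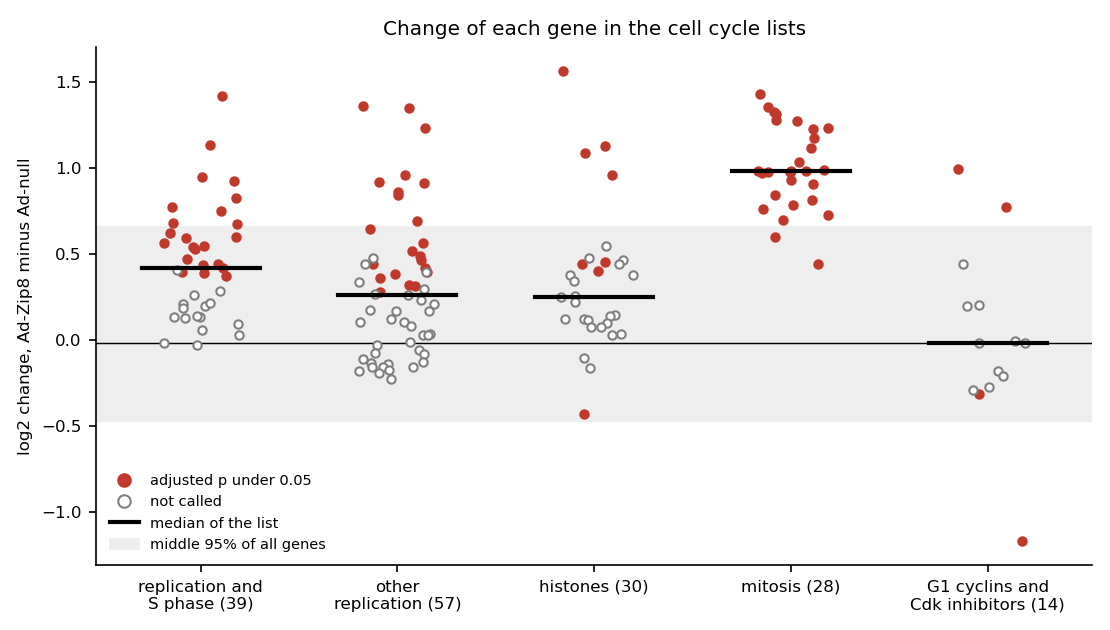
Log2 change of each gene, Ad-Zip8 minus Ad-null (y axis), in 5 lists with the number of measured genes in brackets; red points passed an adjusted p under 0.05, bars are list medians, the thin line is the median of all genes and the grey band holds the middle 95% of all genes (-0.48 to 0.65). The replication list has a median of 0.42 and the mitosis list one of 0.98.

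The replication-dependent histone clusters, whose products are made in bulk during S phase, had 30 measured symbols. Of these 7 rose (23.3%) and 1 fell, with a median log2 change of 0.25. The shares over all genes were 5.48% higher and 5.12% lower, with a median of -0.02. The 30 include 2 pseudogenes by name, which were not called. In the fit with dim genes left out, 15 of the 30 were tested, with a mean over all 8 arrays above the dim level of 5.09. There 7 rose and 1 fell, with a median of 0.38, against 1356 higher and 1578 lower of 13282 genes. Some entered only through their Ad-Zip8 values, such as H1f5 and H2bc12 (Ad-null means 4.43 and 4.73), so the filter partly sets this share and median. H1f1, called higher in the main fit at group means of 2.46 and 2.90 with overlapping groups, was left out there. H1f5 went from 4.58, 4.65, 4.18 and 4.29 with Ad-null to 5.72, 6.07, 6.04 and 6.15 with Ad-Zip8, a rise of 2.97-fold (adjusted p = 6.16e-05). H2ac10 rose 2.12-fold, H2bc12 2.19-fold, H4c9 1.95-fold and H4c12 1.37-fold, while H2bc18 fell 1.35-fold (adjusted p = 0.00533). Copies of a histone gene have almost the same sequence, so a value can belong to more than 1 of them, and 38 histone probe sets with several symbols were not used.

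The mitosis genes, which act after replication, rose in 28 of 28 cases, with a median log2 change of 0.98 and 11 at 2-fold or more. Of all 22180 genes 1216 rose, 248 of them by 2-fold or more, and the median change was -0.02. Ndc80, a kinetochore gene, rose 2.69-fold, Top2a, the gene of the topoisomerase that untangles sister chromatids, 2.56-fold, Prc1, which acts in the midzone of the spindle, 2.51-fold, Mki67, the gene of the Ki-67 proliferation antigen, 2.49-fold, and Birc5, the gene of survivin, 2.43-fold. No test of the difference between the mitosis and replication lists was made. In the promoter windows the CHR word TTTGAA, known from mitotic genes, stood in 17 of 23 mitosis genes (73.9%) against 5 of 33 replication and S phase genes (15.2%) and 17.8% of all measured genes, whereas E2F-type words stood in 1 of the 23 (4.35%). CCAAT, on either strand, stood in 20 of the 33 (60.6%), 17 of the 23 (73.9%) and 41.6% of all measured genes.

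**Figure D5:**
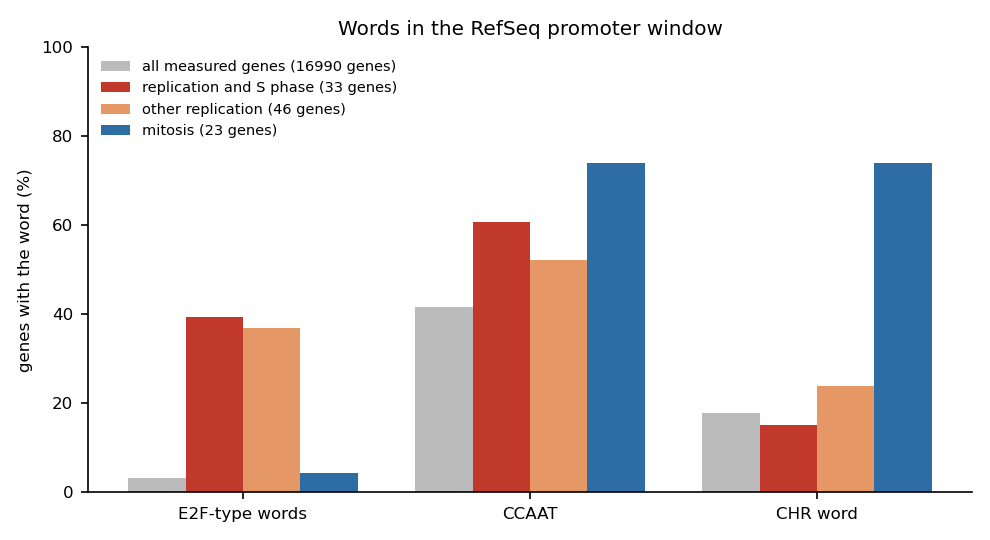
Share of genes (y axis, percent) whose RefSeq promoter window held an E2F-type word, CCAAT or the CHR word on either strand, for all measured genes and for 3 lists, with the number of genes in brackets. E2F-type words stand in 39.4% of the replication and S phase genes against 3.26% of all measured genes, and the CHR word in 73.9% of the mitosis genes.

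Upstream of S phase the 14 G1 cyclin, Cdk inhibitor and Myc genes went both ways, with 2 higher, 2 lower and 10 not past the test. The Cdk4 and Cdk6 inhibitor genes Cdkn2b (1.99-fold, adjusted p = 1.58e-04) and Cdkn2c (1.71-fold, adjusted p = 0.00113) rose. Cdkn1c, the gene of the Cdk inhibitor p57, went from 10.53, 10.76, 10.41 and 10.47 with Ad-null to 9.14, 9.64, 9.30 and 9.39 with Ad-Zip8, a fall of 2.26-fold (adjusted p = 1.78e-04). Cdkn1b, the gene of p27, fell 1.24-fold (adjusted p = 0.0308), a call lost without Ad-null replicate 1 (0.0808), 2 (0.0722) or 4 (0.0518) and without Ad-Zip8 replicate 1 (0.0659), 3 (0.0769) or 4 (0.0794). The cyclin D genes Ccnd1 (-0.29), Ccnd2 (-0.21) and Ccnd3 (-0.28) did not pass. Each lay lower on every Ad-Zip8 array than on any Ad-null array, as did 2160 of all 22180 genes. With a variance trend all 3 passed as lower (adjusted p = 0.0370, 0.0148 and 0.0128), as they did with dim genes left out (0.0411, 0.0356 and 0.0186). In both fits 5 genes of the list were lower. Over all genes, 1621 of 22180 were lower with the trend and 1578 of 13282 with dim genes left out. Ccnd3 also passed with the replicate block (0.0495), with arrays centred on their medians (0.0403) and without Ad-Zip8 replicate 2 (0.0318).

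The cells' identity was checked with 8 chondrocyte markers, among them Col2a1 and Acan. Their mean log2 level lay between 12.65 and 12.68 on the Ad-null arrays and between 12.03 and 12.28 on the Ad-Zip8 arrays. Of the 8, 6 were called lower, against 5.12% of all genes. All 8 lay lower on every Ad-Zip8 array than on any Ad-null array. With the variance trend 8 were called, and 4 without any 1 Ad-null array or without Ad-Zip8 array 1. Markers of other cell types that such a culture could hold were read in the same way. The mean of 7 macrophage markers lay between 4.85 and 4.94 with Ad-null and between 4.85 and 4.90 with Ad-Zip8 (1 higher, 1 lower), that of 5 endothelial markers between 4.45 and 4.64 and between 4.57 and 4.65 (none called), and that of 5 fibroblast markers between 7.71 and 8.34 and between 7.70 and 8.07 (1 lower). The mean of 4 osteoclast markers lay between 5.24 and 5.45 with Ad-null and between 5.43 and 5.57 with Ad-Zip8 (none called), that of 4 skeletal muscle markers between 5.35 and 5.40 and between 5.17 and 5.28 (1 lower), and the measured erythroid marker Slc4a1 was not called. Of 3 adipocyte markers Fabp4 (log2 change 2.78, adjusted p = 8.50e-04) and Adipoq (0.34, adjusted p = 0.0443) rose. With arrays centred on their medians, with a variance trend, or leaving out Ad-null array 1, 3 or 4, or Ad-Zip8 array 1, 2 or 3, just 1 adipocyte marker was called. Adipoq, at means of 3.83 with Ad-null and 4.18 with Ad-Zip8, lay under the dim level of 5.09. With dim genes left out it was not tested, and 1 of the 2 adipocyte markers that remained was called. The mean of the 3 went from between 4.15 and 4.77 to between 5.43 and 5.74. The part of the adipocyte and chondrocyte marker shifts in the replication result was not tested.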

How the data were processed

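Total RNA of the 8 samples was labelled with biotin by a whole-transcript kit, per the labels' protocols. The authors deposited 1 log2 value for each probe set and array. The submitters' processing notes name RMA as the tool, a method that brings arrays to a common distribution and shrinks differences of dim and saturated probes. For its version, any filter and the genome build of the array, the sources used here say nothing. Array medians lay between 5.04 and 5.11, and detection calls were not used. Precision is limited by the 4 arrays per group.

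The platform annotation gave a single symbol to 23521 of 41345 probe sets. Each of 22180 genes was represented by its brightest probe set (by the mean of all 8 arrays). The groups were compared by lmFit and eBayes of limma 3.58.1 (R 4.3.3), two-sided, without covariate or filter, using Benjamini-Hochberg adjustment over all 22180 genes and a threshold of 0.05. Folds are 2 to the power of the log2 change, and intervals are 95% intervals of the moderated fit.

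The gene list and the other lists were chosen with earlier results of these data known. Every member could be named, and values on each array are given for Slc39a8 and, in each role, for the 3 largest changes and every gene that did not pass. From other lists the 5 largest called changes and up to 5 others are named. The subunit pairs, and the promoter stretches of Cdc6, Mcm5 and Rrm2, were added after the data were examined. Old Hist names of histone genes were matched through synonyms in the RefSeq gene table, and promoter sequences are from RefSeq (GRCm38.p6).

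Both groups carry numbers 1 to 4. Deviations from group means correlated at 0.11 to 0.37 between arrays of the same number and at -0.27 to 0.16 between others, and for 7 of 8 arrays the best match was the array of its own number. The numbers were therefore treated as pairs, as a replicate block in an alternative. This pairing was inferred from the data. Other alternatives were other scalings, a filter on dim genes (mean under 5.09), a variance trend, array weights, the mean of a gene's probe sets and leaving out each array.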

Additional observations from a re-analysis of the deposited data

Results flagged for a closer look

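A value far from the other 3 of its group, by Dixon's criterion for groups of 4 (a gap to the nearest value that takes up nearly the whole range of the group), was found in 4 of 136 gene and group pairs examined; chance alone flags about 1 in 20 such groups. Rrm2 read 4.97 on Ad-null array 4, against 5.44 to 5.47 on the other 3, and without that array its log2 change was 1.30. Rpa1 read 7.68 on Ad-null array 3, against 7.77 to 7.78. Exo1 read 6.15 on Ad-Zip8 array 4, against 6.44 to 6.48. Ccnd2 read 10.7 on Ad-Zip8 array 3, against 10.53 to 10.56.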

How the results depend on the processing

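The count of replication and S phase genes that rose was 23. It lay between 22 and 25 under the other scalings, the filter, the variance trend, the array weights and the mean of probe sets. It was 23 with the replicate block, and between 20 and 22 with 1 array left out. The filter left 37 of the 39 genes to test, without Orc1 and Gins1, and 23 of these 37 rose. None of the replication and S phase genes fell in any of these fits. Their median log2 change of 0.42 lay between 0.39 and 0.42 in the other fits and between 0.37 and 0.47 with 1 array left out (0.47 without Ad-null replicate 1). The count of all genes that rose, 1216 of 22180, lay between 1119 and 1414 in the other fits. With the filter it was 1356 of 13282, and with 1 array left out it lay between 924 and 1119. The count of all genes that fell, 1136, lay between 1010 and 1621 in the other fits, highest with the variance trend. With 1 array left out, where fewer samples enter the fit, it lay between 708 and 923. It was lowest when Ad-Zip8 replicate 1 was dropped, and 721 when Ad-null replicate 1 was. Mitosis genes rose in 27 or 28 cases, other replication genes in 17 to 27 and histone genes in 5 to 8. Signs turned for 3 genes that did not pass the test: Orc6 changed by 0.0015 with array weights and by -0.072 to 0.023 with 1 array left out, Gins3 by -0.076 to 0.026 with 1 array left out, and Fen1, at 0.22 on its brighter probe set, by -0.014 as the mean of its probe sets, the other of which was lower with Ad-Zip8. Among values of single replication and S phase genes in the alternative fits, 554 kept direction and call, 15 lost the call, 7 gained it and 7 turned sign. The replicate block ended the call of Prim1 and gave one for Pola1, and changed no other call among the 39 genes.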
